A study of Mus musculus with 14 samples.

Results

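The synaptic vesicle cycle was examined through 46 genes for the proteins that fill, tether, prime, fuse and retrieve transmitter vesicles at the nerve terminal, in layer II/III of the mouse cortex at postnatal day 5. The genes were taken by symbol: synapsins and other vesicle membrane proteins (10 genes), synaptotagmins and Doc2a (8), the fusion machinery (8), the active zone with its priming and Rab3 proteins (13), transporters (4) and endocytic proteins (3). All 46 were found in both deposited tables of counts, which list 25229 gene symbols for the progenitor experiment and 55353 for the postmitotic experiment, and all 46 had enough reads to be tested in each.

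The study asked what loss of Lhx2, a LIM-homeodomain transcription factor, does to the dendrites of these neurons, and compared a deletion begun in progenitors with a deletion begun after the last division. Every animal carried the floxed allele on both chromosomes (Lhx2lox/lox), so the controls carried it too. In the progenitor experiment an EGFP plasmid (control, n = 4 libraries) or a Cre-EGFP plasmid (mutant, n = 4) was electroporated in utero into cortical progenitors at E15.5. In the postmitotic experiment EGFP alone was electroporated, into Lhx2lox/lox cortex (control, n = 3) or into NexCre/+; Lhx2lox/lox cortex (mutant, n = 3), and the day is described only as a similar strategy. NexCre places Cre at the Neurod6 locus, which is active in young excitatory neurons of the cortex, so Cre acts there in labelled and unlabelled neurons alike, whereas plasmid Cre acts in electroporated cells. The labels name microdissection and trypsin dissociation and give no sort, so each library may hold other cells of the dissected tissue. Nothing in the labels says that libraries of a group came from separate animals, so p-values measure the spread between these libraries, which may in part be technical.

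A vesicle is loaded with glutamate by a vesicular transporter and tethered to actin and to other vesicles by synapsin. It is brought to the active zone by Rab3 and its effectors, and primed by Munc13 proteins. A SNARE complex of a vesicle protein and a pair of plasma membrane proteins then pulls the membranes together, complexin clamps it, and synaptotagmin triggers fusion when calcium enters. NSF and SNAP proteins take the complex apart, and dynamin, amphiphysin and endophilin retrieve the membrane. At this age layer II/III neurons are still extending axons and forming their first synapses, and the transcripts are made in the cell body, away from the terminals.

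Library totals were 22677019 to 29497595 counts in the progenitor and 21605777 to 25891416 counts in the postmitotic experiment, and a gene of the 46 had between 121 (Sv2c) and 44353 counts in a library. In the progenitor experiment every control library (24947089 to 29497595) was deeper than every library labelled mutant (22677019 to 24002981). Lhx2 itself was not lower in the libraries labelled mutant. It stood at 127 ± 9.10 CPM (counts scaled by library size; SD, n = 4) in progenitor controls and 129.5 ± 11.4 in those labelled mutant (exact permutation test, two-sided p = 0.743). In the postmitotic experiment it stood at 147 ± 3.48 CPM (n = 3) and 179 ± 7.41, with no overlap (exact permutation p = 0.1, the smallest that 3 against 3 allows; edgeR adjusted p = 0.0276, higher). Leaving out each library in turn, this Lhx2 call held without mutant 1 and ended in the other 5 cases (largest adjusted p 0.184). The exons that the lox sites flank are not stated by the labels, so these counts do not check the deletion, and each direction given here is of libraries by their label. None of 4 progenitor controls held more than 1 CPM of Y-linked RNA, against 3 of 4 progenitor libraries labelled mutant, 2 of 3 postmitotic controls and 1 of 3 postmitotic libraries labelled mutant, so sex and label run together in the progenitor experiment. Its mutant 3 held both Y-linked RNA (99.4 CPM) and Xist (554 CPM). Its mutant 1 held 0 CPM of Y-linked RNA, and its controls at most 0.0381 CPM. A progenitor fit with Y-linked CPM as a covariate therefore compares largely mutant 1 with the controls.

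Levels were compared between genes per length, as CPM per kilobase of exon (RPKM), in controls. Cplx2, a complexin, stood first in both experiments, at 301 ± 10.2 RPKM in progenitor and 262 ± 23.8 in postmitotic controls, and Vamp2, the vesicle SNARE, second at 207 ± 11 and 154 ± 5.93. Stx1a, Syp, Rab3a and Syn1 followed in progenitor controls, at 155 ± 8.16, 153 ± 16.4, 153 ± 16.2 and 138 ± 10.5 RPKM, and these neighbours overlapped within their SD. The lowest levels were those of Sv2c (0.781 ± 0.247 and 1.62 ± 0.121) and Vamp1 (1.22 ± 0.0243 and 0.876 ± 0.0613), an SV2 protein and a vesicle SNARE. Of the vesicular glutamate transporters, Slc17a7 (VGLUT1) stood at 88.4 ± 12.9 and 37.4 ± 2.60 RPKM and Slc17a6 (VGLUT2) at 13.0 ± 1.19 and 12.4 ± 1.06. The experiments were counted in separate tables, so levels are not compared across them.

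Slc17a6 and Slc17a7 encode the vesicular glutamate transporters of the list and differed between the experiments in opposite directions. Slc17a6 was the sole gene of the 35 found in the RefSeq promoter table (GRCm38.p6) with the homeodomain core TAATTA in a window from 250 bases before to 50 bases after an annotated start. Lhx2 belongs to the class of factors that bind such cores, and the match is a description of the letters, not a site. TAATTA, searched on both strands, occurs in a window of 6.12% of 27025 genes in that table and in 1 of 35 here (2.86%). The window that holds it is 1 of 2 listed for Slc17a6, with the core in capitals 81 bases before the start, and the Slc17a7 window holds none of the 5 motifs searched. Both windows, on the plus strand of chromosome 7, are shown to set the transporters side by side.

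Slc17a6, chr7:51624387-51624686: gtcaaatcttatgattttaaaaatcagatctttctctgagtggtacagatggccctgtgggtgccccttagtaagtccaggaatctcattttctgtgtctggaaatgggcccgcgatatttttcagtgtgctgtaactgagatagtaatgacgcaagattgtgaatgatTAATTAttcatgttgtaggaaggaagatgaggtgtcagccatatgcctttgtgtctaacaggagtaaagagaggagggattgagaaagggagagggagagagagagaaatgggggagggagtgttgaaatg

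Slc17a7, chr7:45163671-45163970: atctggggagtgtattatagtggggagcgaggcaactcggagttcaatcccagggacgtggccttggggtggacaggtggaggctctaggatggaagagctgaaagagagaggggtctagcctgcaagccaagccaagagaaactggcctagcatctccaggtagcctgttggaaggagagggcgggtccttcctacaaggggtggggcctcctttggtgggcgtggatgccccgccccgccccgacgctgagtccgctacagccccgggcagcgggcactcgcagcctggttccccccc

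The Slc17a6 window shown, chosen because it holds the core, is 43% G and C and the Slc17a7 window 63.7%. The other Slc17a6 window, chr7:51621580-51621879, holds no TAATTA and is 53.7% G and C. The other motifs were TAATTG (9.22% of genes, 2 of 35 here: Rph3a and Vamp1), the E-boxes CAGCTG (18.3%, 12 of 35) and CATATG (4.48%, 2 of 35: Rph3a and Slc17a6), and the cAMP response element TGACGTCA (2.03%, 2 of 35: Sh3gl2 and Syn1).

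In the progenitor experiment the presynaptic genes shifted downwards in the libraries labelled mutant. By edgeR's quasi-likelihood test at an adjusted p under 0.05, 22 of 46 fell and 3 rose, and 21 were not called. Over all 15295 tested genes 11.4% were called lower and 12% higher (23.4% in either direction), against 47.8% and 6.52% of the 46. Their median log2 fold change was -0.17, against 0.00 over all genes, and 35 of 46 lay below 0. In 19 of 46 every library labelled mutant lay below every control, and in 2 above (13.3% and 13.7% of all tested genes). The 22 that fell did so by 12.8% to 41.9%, with a median log2 fold change of -0.39. In bulk tissue fewer cells of a type and less RNA per cell cannot be told apart. The list was chosen with earlier results of these data known, so its shares are a description beside those of all genes.

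**Figure D1:**
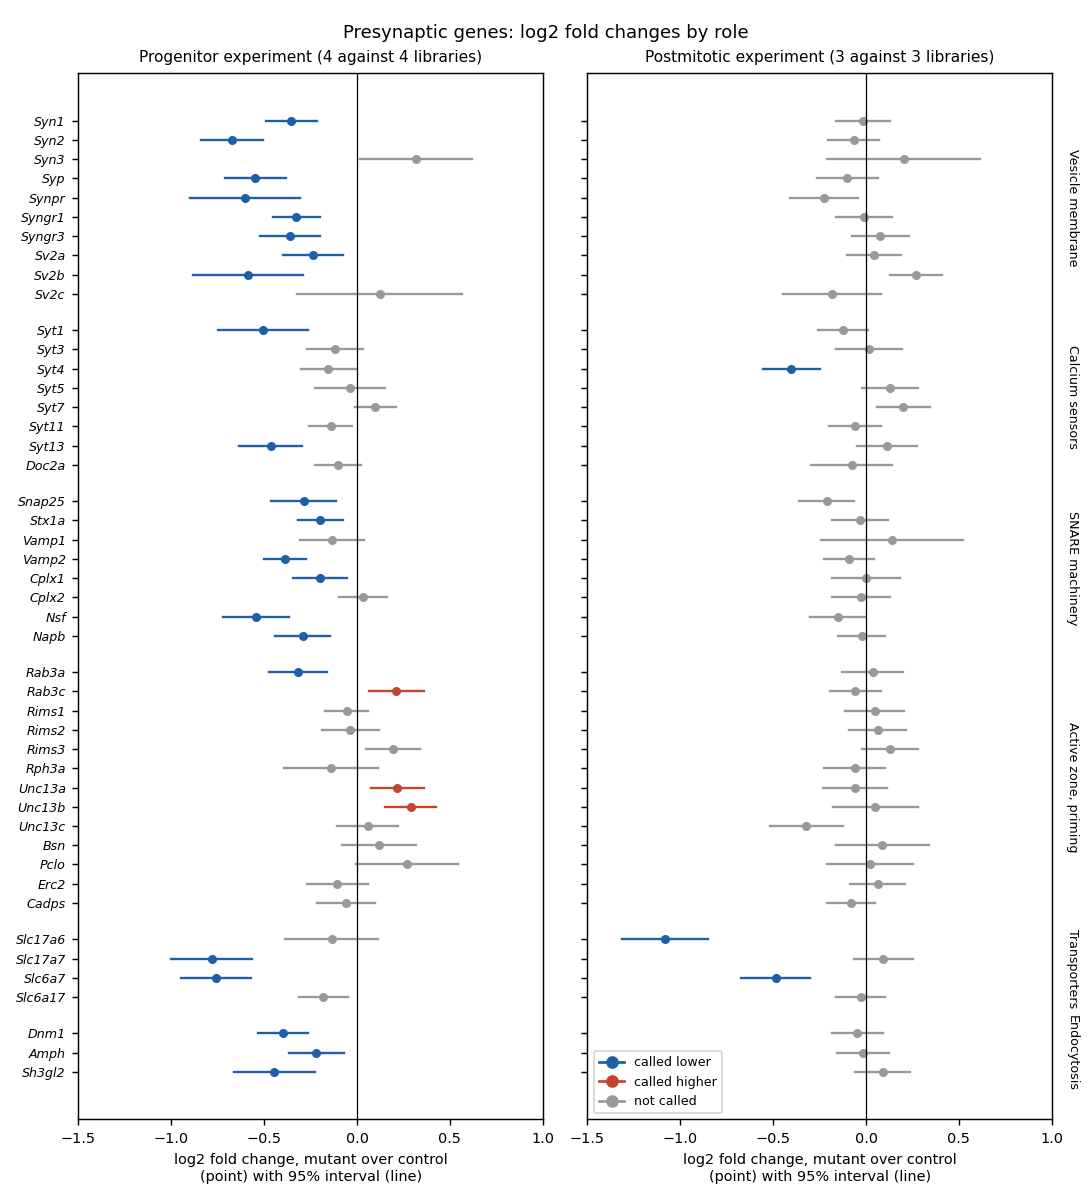
Log2 fold changes (horizontal axis, libraries labelled mutant over control) with 95% intervals for all 46 genes grouped by role, progenitor experiment (left; n = 4 and 4) and postmitotic experiment (right; n = 3 and 3). Blue marks genes called lower, red called higher and grey not called: 22 and 3 on the left, 3 and 0 on the right.

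Of the vesicle membrane proteins, 8 of 10 fell, and the median log2 fold change was -0.36. Syn2, a synapsin that tethers vesicles to actin and to each other, stood at 174, 196, 178 and 216 CPM in controls 1 to 4 and at 122, 132, 116 and 109.7 CPM in the libraries labelled mutant. The groups did not overlap, and the log2 fold change was -0.67 ± 0.08 (SE, edgeR adjusted p = 0.00023), the largest fall of this group. Syp, synaptophysin, an abundant vesicle membrane protein and partner of Vamp2, gave 887, 773, 692 and 846 CPM in controls and 513, 554, 543 and 578 CPM in those labelled mutant. All 4 of the latter lay below the lowest control, a log2 fold change of -0.55 ± 0.08 (adjusted p = 0.000672). Syn1, the other main synapsin, gave 459, 479, 406 and 479.5 CPM against 343, 377, 359 and 348 CPM, again without overlap (-0.35 ± 0.06, adjusted p = 0.00241). Syngr1 and Syngr3, synaptogyrins with a membrane fold like that of synaptophysin, gave log2 fold changes of -0.33 ± 0.06 and -0.36 ± 0.07 (adjusted p = 0.00255 and 0.00573), with controls at 308 to 362 and 173 to 216 CPM and libraries labelled mutant at 258 to 284 and 146 to 168 CPM.

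Sv2b, a glycoprotein of the vesicle that binds synaptotagmin, gave 141, 166, 128 and 176 CPM against 85.3, 123, 94.3 and 103 CPM, and fell by 33.5% (log2 -0.59 ± 0.13, adjusted p = 0.0127). Synpr, synaptoporin, fell on the log2 scale by 0.60 ± 0.13 (adjusted p = 0.0109), from 48.9 to 76.9 CPM to 39.8 to 45.1 CPM. Sv2a, a relative of Sv2b, fell less and its groups overlapped (-0.24 ± 0.07, adjusted p = 0.0378). This call was lost without control 1, 2 or 4 or mutant 1, 3 or 4, with adjusted p up to 0.116. Syn3, a synapsin of early development, was not called at 0.32 ± 0.13 (adjusted p = 0.117), nor was Sv2c (0.12 ± 0.20, adjusted p = 0.7).

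Of the synaptotagmins and Doc2a 2 of 8 fell, with a median log2 fold change of -0.13. Syt1, the sensor of fast release, stood at 965, 1042, 774 and 1063 CPM in controls and at 586, 715, 644 and 765 CPM in the libraries labelled mutant. The lowest control lay just above the highest of the others, and the log2 fold change was -0.50 ± 0.11 (adjusted p = 0.00915). Syt13, a synaptotagmin without the residues that bind calcium, gave 80.7, 77.3, 70.9 and 87.5 CPM against 57.0, 63.0, 50.8 and 58.3 CPM (-0.47 ± 0.08, adjusted p = 0.00184). Syt3, Syt4, Syt5, Syt7, Syt11 and Doc2a were not called, with log2 fold changes from -0.15 (Syt4) to 0.10 (Syt7). Syt11 (-0.14 ± 0.05, adjusted p = 0.0677) did not overlap between groups.

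The fusion machinery fell in 6 of 8 genes, with a median of -0.24. Vamp2, the vesicle SNARE, gave 852, 772, 765 and 766 CPM in controls and 586, 604, 621 and 600.4 CPM in the libraries labelled mutant. Spread within each group was small beside the gap, and the log2 fold change was -0.39 ± 0.05 (adjusted p = 0.000572). Nsf, the ATPase that disassembles spent SNARE complexes, gave 293, 287, 239 and 324 CPM against 193, 209.9, 189 and 192 CPM (-0.54 ± 0.08, adjusted p = 0.00107), and Napb, its SNAP adaptor in brain, fell by 18.3% (-0.29 ± 0.07, adjusted p = 0.0102). Snap25 and Stx1a, the plasma membrane SNAREs, changed less. Snap25 gave 479.9, 417, 384 and 468 CPM against 346, 403, 336 and 349 CPM with overlap (-0.29 ± 0.08, adjusted p = 0.0241), and Stx1a 447, 401, 405 and 403 CPM against 348, 359, 386 and 349.6 CPM (-0.20 ± 0.06, adjusted p = 0.0243).

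Some of these calls lay near the threshold. That of Snap25 was lost without control 1 or 4 or mutant 1, 3 or 4 (adjusted p up to 0.0761), though its log2 fold change stayed between -0.35 and -0.24 with any library left out. That of Stx1a was lost without control 1 or mutant 1, 2 or 4 (up to 0.0831; log2 fold change -0.23 to -0.16). Cplx1, a complexin, fell at -0.20 ± 0.07 (adjusted p = 0.0463) and lost its call when any library other than control 3 was left out (up to 0.132; log2 fold change -0.26 to -0.17). Cplx2, the most abundant gene of the list, was not called at 0.03 ± 0.06 (1483 ± 50.2 against 1516 ± 107 CPM, adjusted p = 0.732), nor was Vamp1 (-0.14 ± 0.08, adjusted p = 0.239).

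All 3 endocytic genes fell. Dnm1, the dynamin that cuts vesicles from the membrane in neurons, gave 396, 424, 362 and 438 CPM against 301, 319.7, 304 and 306 CPM, without overlap (-0.40 ± 0.06, adjusted p = 0.00135). Sh3gl2, endophilin A1, which recruits dynamin and synaptojanin, gave 174, 204, 155 and 197 CPM against 127, 157, 123 and 129 CPM (-0.45 ± 0.10, adjusted p = 0.00966), where mutant 2 lay above control 3. Amph, amphiphysin, a curvature-sensing partner of dynamin, fell by 14.1% (-0.22 ± 0.07, adjusted p = 0.0375), a call lost without control 1, 2 or 4 or mutant 1, 3 or 4 (adjusted p up to 0.111).

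The active zone, priming and Rab3 genes did not share this direction. Of 13, 1 fell, 3 rose, 9 were not called, and the median log2 fold change was 0.06. Rab3a, the vesicle GTPase, fell from 386, 331, 299 and 344 CPM to 256, 281, 280.1 and 274 CPM (-0.32 ± 0.07, adjusted p = 0.00926). Its relative Rab3c rose, from 170.2, 176, 179 and 198 CPM to 209, 233, 203 and 193 CPM (0.21 ± 0.07, adjusted p = 0.0415). The 2 differ in direction, and Rab3c overlapped between groups.

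Unc13b (Munc13-2), a priming factor that opens syntaxin for SNARE assembly, rose from 108, 102, 90.9 and 95.7 CPM to 118, 113, 126 and 126 CPM (0.29 ± 0.06, adjusted p = 0.00757), and Unc13a (Munc13-1), the main priming factor of excitatory synapses, from 401, 492, 429 and 456 CPM to 529, 509, 534 and 494 CPM (0.22 ± 0.06, adjusted p = 0.0311). Neither overlapped between groups. The scaffold Bsn, bassoon, was not called, at 263, 369.5, 325 and 348 CPM against 373, 343, 361 and 342 CPM (0.12 ± 0.09, adjusted p = 0.366). Of the others, Rims1, Rims2, Rims3, Rph3a, Unc13c, Pclo, Erc2 and Cadps lay between -0.14 (Rph3a) and 0.27 (Pclo), uncalled. The rise of Rab3c was lost without control 1, 2 or 3 or mutant 1, 2 or 3 (adjusted p up to 0.107) and that of Unc13a without control 1, 3 or 4 or mutant 1, 2 or 3 (up to 0.088). All 3 rises lost their calls with Y-linked CPM as a covariate (Rab3c 0.21, Unc13a 0.26 and Unc13b 0.25; adjusted p = 0.275, 0.163 and 0.158), and Unc13b and Rab3c lost theirs with the exon length trend removed.

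The transporters held the largest falls. Slc17a7 (VGLUT1; chromosome 7, 45163949 to 45176142, plus strand), which loads glutamate into the vesicles of most mature cortical excitatory neurons, gave 507, 484, 378 and 538 CPM in controls and 258, 302, 278 and 271 CPM in the libraries labelled mutant. It fell by 41.9% with no overlap (-0.78 ± 0.10, adjusted p = 0.000562). Slc6a7 (chromosome 18, 60995380 to 61014222, minus strand), a proline transporter of glutamatergic terminals, gave 114, 111, 105 and 99.2 CPM against 58.9, 56.1, 63.0 and 75.3 CPM, also without overlap (-0.76 ± 0.09, adjusted p = 0.000234). Slc6a17, a vesicular neutral amino acid transporter, was not called (-0.18 ± 0.06, adjusted p = 0.0516), nor was Slc17a6 (VGLUT2; chromosome 7, 51622006 to 51671119, plus strand), the transporter of early cortical and of thalamic neurons, at 78.5, 71.4, 66.5 and 63.9 CPM against 58.7, 51.8, 69.0 and 75.3 CPM (-0.14 ± 0.11, adjusted p = 0.41).

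**Figure D2:**
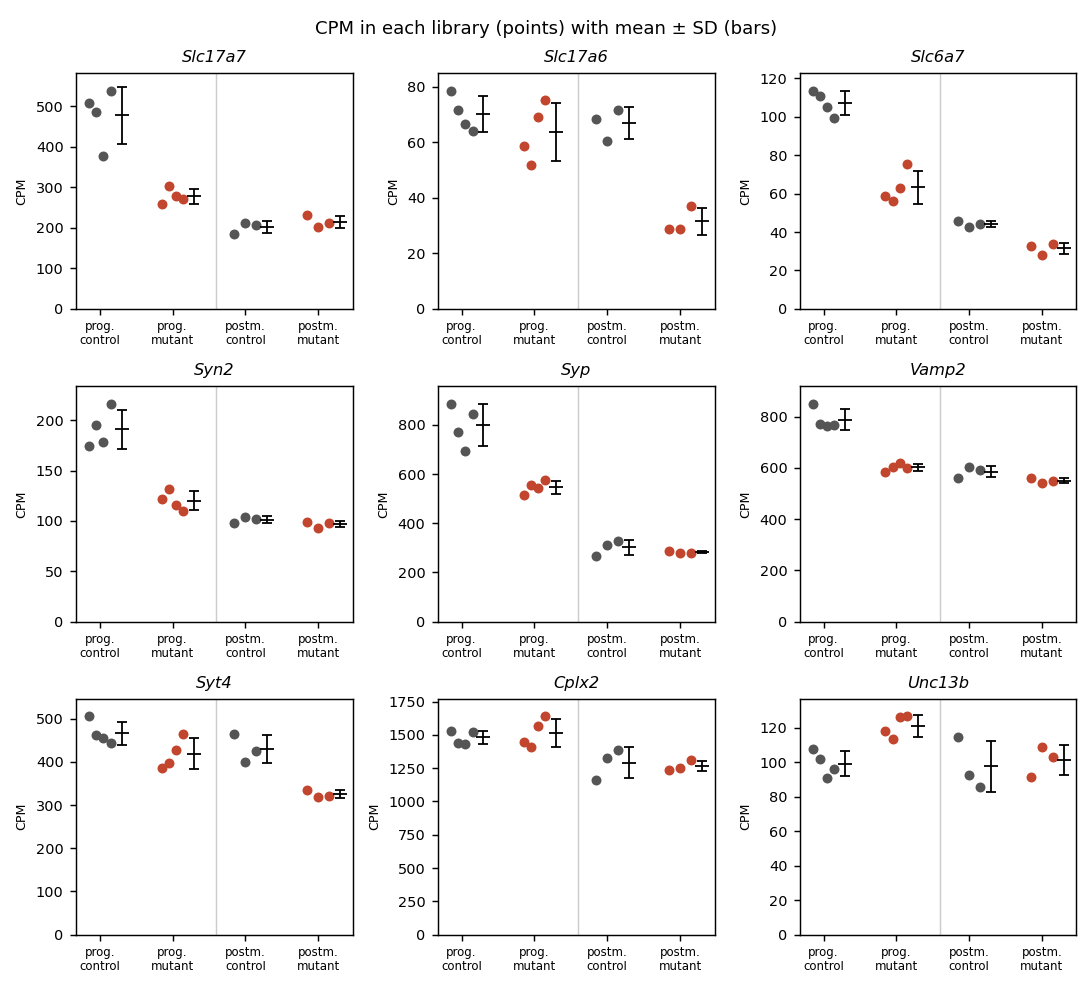
CPM (vertical axes, from 0) in each library for selected presynaptic genes, in the progenitor control, progenitor mutant, postmitotic control and postmitotic mutant groups (n = 4, 4, 3 and 3, by their labels), with the mean and SD in black beside the points. Slc17a7 separates the progenitor groups (378 to 538 against 258 to 302 CPM) and Slc17a6 the postmitotic groups (60.5 to 71.7 against 28.6 to 37.2 CPM).

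Other measures of the progenitor libraries stand beside these falls. Y-linked RNA stood at 155, 99.4 and 170 CPM in mutants 2, 3 and 4, and at 0 in mutant 1. The label effect in a fit with this RNA as a covariate rests largely on mutant 1 against the controls. Calls kept or lost in that fit do not tell sex from label. With Y-linked CPM as a covariate, 11 of the 22 falls remained called (Syn1, Syn2, Syp, Syngr1, Sv2b, Syt1, Vamp2, Nsf, Slc17a7, Slc6a7 and Dnm1). The other 11 kept log2 fold changes of similar or larger size but not their calls, among them Synpr (-0.59, adjusted p = 0.152), Sh3gl2 (-0.54, 0.0842), Syt13 (-0.49, 0.0525), Syngr3 (-0.43, 0.0656), Rab3a (-0.40, 0.0684) and Snap25 (-0.34, 0.144). Over all tested genes, lower calls went from 1739 to 430 with this covariate and higher calls from 1838 to 518. Without mutant 1, 17 of the 46 were called lower and 1 higher (1108 and 1281 of all tested genes). Without mutant 3, which held both Y-linked RNA and Xist, they were 18 and 1 (1138 and 1245 of all tested genes). Syn1 and Syp lie on the X chromosome.

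Cell type markers are read against the 11.4% of all genes called lower and 12% called higher. Of 6 excitatory neuron markers, Slc17a7 (a member here), Camk2a and Emx1 fell and Neurod2 rose. The summed CPM of the list was 1426 to 1661 in controls and 1065 to 1159 in those labelled mutant. This sum includes Slc17a7, with means of 477 and 277 CPM, so it is in part the fall of that member. Interneuron markers fell in 2 of 12 (Gad1 and Slc32a1; summed 571.5 to 760.7 against 613 to 716.5 CPM, with a list median of -0.01), astrocyte and radial glia markers in 4 of 10 (2302 to 2872 against 1960 to 2363 CPM) and microglia markers in 2 of 10 (152.6 to 224.3 against 127 to 170.1 CPM). Oligodendrocyte lineage and endothelial and mural markers rose in 3 of 8 and 3 of 10 (484 to 565.7 against 532.4 to 616.2, and 305.5 to 446.9 against 381.9 to 524.1 CPM). Upper-layer markers rose in 1 of 6 (Pou3f2; summed 2825 to 3006 against 2709 to 2907 CPM) and subplate and deep-layer markers fell in 2 of 10 tested (Cplx3 and Nr4a2; 317.4 to 475.6 against 263.7 to 435.5 CPM). Slc32a1 and Cplx3 are also in the wider set of presynaptic genes given below. No marker of these cell types was at 0 in any library, and the part of cell makeup in the falls was not tested. After all libraries were thinned to the lowest total, 22 of the 46 were called lower and 3 higher, as with the full counts.

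Exon length also moved with the change: the median log2 fold change of all genes was -0.03, -0.01 and 0.05 in the short, middle and long classes (3 classes of about equal size, split at 3292 and 5832 bases). Of the 46, 4 of 7, 10 of 15 and 8 of 24 fell in those classes, and all 3 rises lay in the long class, which held the most of the 46. The shares of all genes called in each class were not counted. After the length trend of each library was removed 22 were called lower and 1 higher (Unc13a), beside 1883 and 1833 of all tested genes. Of the rises, Unc13b (0.15, adjusted p = 0.298) and Rab3c (0.14, adjusted p = 0.132) lost their calls. Among the falls Cplx1 lost its call, so these 22 are not all the same genes as before.

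In the postmitotic experiment 3 of the 46 fell, Slc17a6, Slc6a7 and Syt4, and 0 rose (6.52% and 0%, against 1.06% lower and 0.895% higher of 17775 tested genes). At an unadjusted p under 0.05, edgeR counted 7 lower and 2 higher, and at an adjusted p under 0.05 DESeq2 counted 1 higher (Sv2b) and limma-voom 0. The share of all tested genes at the unadjusted threshold was not counted. Unadjusted counts here and below therefore cannot be read against such a share. The median log2 fold change of the 46 was -0.02, and 27 of 46 lay below 0 (1.96% of all tested genes were called in either direction). In 9 of 46 the libraries labelled mutant lay below all controls, and in 2 above (8.44% and 7.98% of all tested genes).

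Slc17a6 stood at 68.2, 60.5 and 71.7 CPM in controls and at 28.8, 28.6 and 37.2 CPM in the libraries labelled mutant. The highest of the latter lay far below the lowest control, and the log2 fold change was -1.08 ± 0.11 (adjusted p = 0.000142), the largest of any of the 46 in either experiment. Slc6a7 gave 45.7, 42.7 and 44.2 CPM against 32.5, 28.3 and 33.9 CPM (-0.49 ± 0.09, adjusted p = 0.00899), and was the sole gene of the 46 that fell in both experiments (1 of 22 progenitor falls, 4.55%, and 1 of 3 postmitotic falls, 33.3%). Syt4 (chromosome 18, 31437808 to 31447406, minus strand), a synaptotagmin of dense-core and secretory vesicles, gave 465, 399 and 425 CPM against 336, 318 and 321 CPM, without overlap (-0.40 ± 0.07, adjusted p = 0.00844). All 3 calls remained when any library was left out. With libraries 1 and 2 of each group alone, that of Syt4 was lost.

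Slc17a7 was not called here, at 186, 212 and 207 CPM against 231, 202 and 213 CPM (0.09 ± 0.07, adjusted p = 0.697, 95% interval -0.06 to 0.25). Syn2 (-0.07 ± 0.06), Syp (-0.10 ± 0.08), Syn1 (-0.02 ± 0.07), Syt1 (-0.13 ± 0.06), Vamp2 (-0.09 ± 0.06) and Stx1a (-0.03 ± 0.07) were not called either. Snap25 gave 335, 329 and 344 CPM against 314, 278 and 277 CPM, with no overlap but an adjusted p of 0.196 (-0.21 ± 0.07). Sv2b was higher in all 3 libraries labelled mutant (94.8, 86.0 and 94.1 against 109.8, 112 and 109 CPM) but not called by edgeR (0.27 ± 0.07, adjusted p = 0.0577). Bsn (0.09 ± 0.11) and Unc13a (-0.06 ± 0.08) were not called. The 43 uncalled genes lay between -0.32 (Unc13c, 30.0, 33.3 and 34.2 against 23.9, 26.9 and 27.2 CPM) and 0.27 (Sv2b), with a median half-width of the 95% interval of 0.152.

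By role, the postmitotic calls were 0 of 10 vesicle membrane proteins (1 lower and 1 higher at an unadjusted p under 0.05). Among the synaptotagmins and Doc2a 1 of 8 was called (Syt4). At an unadjusted p under 0.05 that group also held 1 higher, Syt7, at 0.20 without overlap. Calls were 0 of 8 in the fusion machinery (2 lower unadjusted) and 0 of 13 at the active zone (1 lower unadjusted). Transporters held 2 of 4 and endocytic genes 0 of 3 (0 unadjusted). Of the marker lists, the upper-layer list held 3 falls of 6 (Cux1, Rorb and Lmo4; summed 3170 to 3463 against 2887 to 3314 CPM), the subplate and deep-layer list 3 rises of 10 tested (Tle4, Foxp2 and Tbr1; 328.4 to 344.2 against 371.7 to 463.4 CPM), and the excitatory list 3 falls (Neurod6, Camk2a and Emx1) and 2 rises (Neurod2 and Tbr1) of 6. Neurod6 is the locus that carries the NexCre insertion. Summed interneuron markers stood at 674.4 to 702 CPM in controls and 686.2 to 777.9 CPM in the libraries labelled mutant, astrocyte markers at 1273 to 1396 and 1102 to 1242, oligodendrocyte markers at 340.8 to 381.3 and 317.6 to 366.2, microglia markers at 69.3 to 75.2 and 59.9 to 70.5, and endothelial and mural markers at 229.1 to 270.2 and 208.2 to 247 CPM. The part of these shifts in the falls of Slc17a6, Slc6a7 and Syt4 was not tested.

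The difference between the experiments was tested itself. In 1 model of the 14 libraries with a mean per group, the progenitor contrast was set against the postmitotic contrast (an interaction test). The experiments differ in the time of deletion, and also in how Cre was delivered and which cells it reached. NexCre at Neurod6 was present only in postmitotic libraries labelled mutant, and sex and label run together in the progenitor experiment. These differences cannot be told apart in this test. The log2 fold change was lower in the progenitor experiment for 12 of 46 and higher for 1 (26.1% and 2.17%, against 3.1% and 3.84%, or 6.94% in either direction, of 15643 tested genes). Slc17a7 differed by -0.88 ± 0.14 (adjusted p = 0.00156), Syn2 by -0.61 ± 0.10 (0.00299), Syt13 by -0.58 ± 0.11 (0.00556) and Sv2b by -0.86 ± 0.17 (0.00837). Slc17a6 differed the other way, by 0.95 ± 0.18 (0.00599). These 5 kept the call when any library was left out, but Slc17a6 lost it with Y-linked CPM as a covariate (0.82, adjusted p = 0.0613). The falls of Slc6a7 in the 2 experiments did not differ at this threshold (-0.27 ± 0.13, adjusted p = 0.205). Syt4, which fell in the postmitotic experiment, and Syt1, which fell in the progenitor experiment, were not called in this test either (0.25 ± 0.10, adjusted p = 0.147, and -0.38 ± 0.14, adjusted p = 0.115).

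Syn1 (-0.34 ± 0.09, adjusted p = 0.031), Syp (-0.45 ± 0.11, 0.0228), Syngr1 (-0.32 ± 0.09, 0.0405), Syngr3 (-0.44 ± 0.11, 0.022), Vamp2 (-0.30 ± 0.07, 0.0228), Nsf (-0.39 ± 0.11, 0.047), Dnm1 (-0.35 ± 0.09, 0.023) and Sh3gl2 (-0.54 ± 0.13, 0.0233) were called too, but lost the call without some library. Without postmitotic control 1 the count of lower genes was 4, without postmitotic mutant 1 it was 5, without progenitor control 4 it was 6, and with Y-linked CPM as a covariate it was 4 (Syn2, Sv2b, Syt13 and Slc17a7). Over all tested genes, lower calls went from 485 to 276, 282, 295 and 133 in those settings, in that order. Syp, Dnm1 and Sh3gl2 lost the call without any of those 3 libraries, and Syngr3 and Vamp2 without either of the postmitotic ones. Syn1 lost it without those 3, progenitor control 2 or progenitor mutant 1, 3 or 4. Syngr1 kept it only without progenitor control 3, progenitor mutant 2, postmitotic control 2 or postmitotic mutant 1, and Nsf only without progenitor control 3, progenitor mutant 2 or postmitotic mutant 2. The adjusted p of these 8 with a library left out reached at most 0.125 (Nsf). Of the vesicle membrane proteins 6 of 10 were lower in this test, of the endocytic genes 2 of 3, of the fusion machinery 2 of 8, and of the active zone 0 of 13 (1 lower and 3 higher at an unadjusted p under 0.05).

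**Figure D3:**
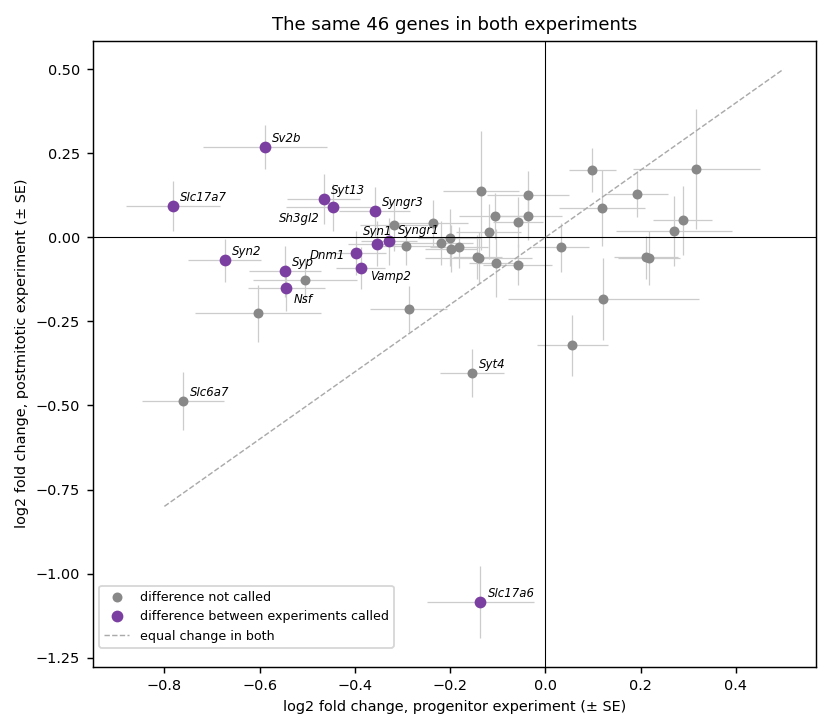
Log2 fold change (libraries labelled mutant over control) of each of the 46 genes in the progenitor experiment (horizontal axis) and the postmitotic experiment (vertical axis), with SE bars and a dashed line of equal change; purple points are the 13 genes whose difference between experiments was called. Slc17a7 lies far to the left near 0 on the vertical axis (-0.78 and 0.09), Slc17a6 far below near 0 on the horizontal axis (-0.14 and -1.08), and Slc6a7 is low on both (-0.76 and -0.49).

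The vesicular glutamate transporters moved in different directions relative to each other in the 2 experiments. The ratio of Slc17a7 to Slc17a6 per length was 6.47, 6.79, 5.69 and 8.43 in progenitor controls and 4.40, 5.84, 4.03 and 3.61 in the libraries labelled mutant, lower on average (6.85 ± 1.15 against 4.47 ± 0.967), though mutant 2 lay above control 3. In the postmitotic experiment it was 2.73, 3.51 and 2.89 in controls and 8.04, 7.06 and 5.73 in the libraries labelled mutant, higher in each (3.04 ± 0.415 against 6.95 ± 1.16). This ratio was chosen after its values were seen and is given with no test.

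Summed over the 46 genes, the level was 13832 ± 846 CPM in progenitor controls (12606 to 14543) and 11979.8 ± 307 in the libraries labelled mutant (11568 to 12274), without overlap. In the postmitotic experiment it was 10239 ± 265 and 9953 ± 90.8 CPM, and the groups overlapped (9933 to 10401 against 9865 to 10047). No test was made on these sums.

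**Figure D4:**
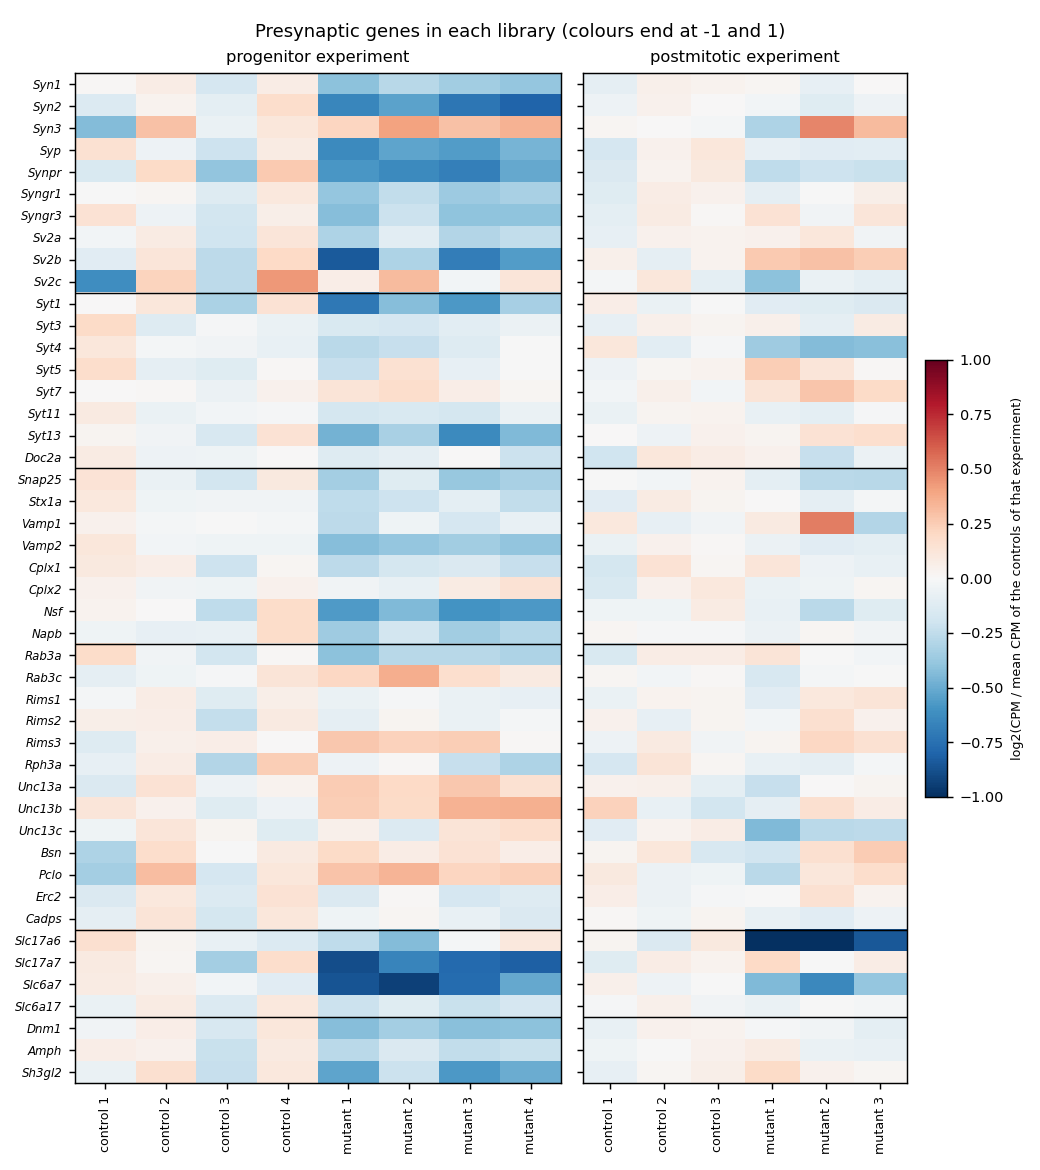
Log2 of CPM over the mean CPM of the controls of the same experiment for the 46 genes (rows, by role) in each library (columns), progenitor experiment on the left and postmitotic on the right, blue below and red above, with colours ending at -1 and 1. The blue block of vesicle membrane, fusion and endocytic genes in the 4 progenitor libraries labelled mutant is not repeated on the right, where Slc17a6 is the darkest row.

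A wider set of 70 presynaptic genes outside the list, also chosen with earlier results known, was looked at in the same fits. In the progenitor experiment 23 fell and 5 rose (32.9% and 7.14%, beside 11.4% and 12% of all tested genes), with a median log2 fold change of -0.14. The falls with the smallest p were Syt17 (-0.99 ± 0.14, adjusted p = 0.000721; 11.5 ± 2.06 CPM in controls, 5.84 ± 0.643 in those labelled mutant), Sncb, beta-synuclein (-0.67 ± 0.10, adjusted p = 0.00112), and Atp6v1b2, a subunit of the proton pump that drives vesicle filling (-0.41 ± 0.06, adjusted p = 0.00144). Cacna1b, the N-type calcium channel of terminals, rose from 275 to 378.5 CPM to 503 to 550 CPM (0.68 ± 0.08, adjusted p = 0.000302). Slc17a8 (VGLUT3) rose from a low level, 2.12 to 3.61 CPM to 6.27 to 16.7 CPM (1.92 ± 0.34, adjusted p = 0.00533), and Ppfia1, a liprin scaffold, rose by 0.31 ± 0.07 (adjusted p = 0.00697). Slc17a8 and Ppfia1 were not called with Y-linked CPM as a covariate. In the postmitotic experiment 3 of the 70 fell and 0 rose (4.29% and 0%, beside 1.06% and 0.895% of all tested genes; 7 lower and 5 higher at an unadjusted p under 0.05). These were Cadps2, a factor of dense-core vesicle release (-1.20 ± 0.08, adjusted p = 2.68e-06; 55.6 to 63.8 against 25.7 to 26.9 CPM), Cacna2d1, a calcium channel subunit (-0.40 ± 0.07, adjusted p = 0.00982), and Lin7a, a scaffold of presynaptic and junctional complexes (-1.02 ± 0.18, adjusted p = 0.0108, and 0.0594 without control 2). Cadps, its relative on the list, was not called in either experiment (-0.06 ± 0.07 and -0.08 ± 0.06).

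Reads of overlapping genes could not be told apart where counting ignored strand, and whether it did is not given here. Exons of an opposite-strand gene cover 39.4% of the exon bases of Doc2a (Ino80e), 16.8% of Syp (Gm14703), 14.5% of Syt4 (Gm26658), 14.1% of Syn3 (Timp3) and 5.13% of Syt7 (Gm26859), and at most 3.92% of any other of the 46. The authors' deposited table of the progenitor experiment called 28 of the 46 (24 lower and 4 higher), among them all 25 called by edgeR, with Rims3, Slc6a17 and Syt11 in addition. The authors' deposited table of the postmitotic experiment called 3, the same 3 genes. These calls rest on the same libraries, and the share of all genes called in the authors' tables was not counted. The DESeq2 fit made here for the progenitor experiment called 24 of the 46 lower and 4 higher. Over all tested genes it called 2048 lower and 1952 higher, against 1739 and 1838 by edgeR.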

How the data were processed

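The 14 libraries, in 4 groups, were made from polyA RNA with a directional NEBNext protocol and read as pairs of 150 bases, per the labels' protocols. The authors deposited a table of raw counts per gene symbol for each experiment. HISAT2, featureCounts and DESeq2 with build mm10 are named in the submitters' processing notes, without versions, and neither the annotation nor the strandedness of counting is given there. The authors also deposited DESeq2 results, per the file headers: mean normalised counts (a signal), log2 fold changes and adjusted p-values, where a 0 stands in for missing values and damaged some symbols (Snap25 and Napb were read under their damaged spelling). The files held 0 columns of other samples.

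Each experiment was fitted alone with edgeR 4.0.16 (limma 3.58.1, R 4.3.3): filterByExpr, TMM factors, robust glmQLFit and glmQLFTest, Benjamini-Hochberg adjustment over all tested genes (15295, 17775 and, for the interaction, 15643), and a call at an adjusted p under 0.05. A log2 fold change is libraries labelled mutant over control, and its SE is its size over the square root of F. CPM use the summed counts of tested genes scaled by TMM factors, and RPKM the exon length of GENCODE M21 (GRCm38), which also gave positions. Common dispersion corresponded to a coefficient of variation of 0.11 (progenitor) and 0.112 (postmitotic). Chi-square over degrees of freedom between replicates of a group was 6.73 to 20.7, so no 2 libraries looked like 1 library deposited more than once. Depth was 21605777 to 29497595 counts a library. The test was also run on simulated counts with 200 genes changed, far fewer than the 3577 called in the progenitor experiment. That run does not check error rates under so wide a shift, and its outcome is not given here. Members and lists were chosen with earlier results of these data known. Values in every library are given for most genes called, up to 10 per test and direction by p, and for genes that stand for a role. Syngr1 and Syngr3 are given as ranges, and not all of these genes are given in every postmitotic library. The other presynaptic genes named are up to 3 per experiment and direction by p. Alternatives were DESeq2 1.42.0, limma-voom, other scaling and filters, a stricter threshold, a replicate block, thinning, a Y-linked covariate and leaving out each library, and, chosen after seeing the data, removal of the exon length trend. Replicate numbers were not used to pair the samples in the main fits. The excitatory and upper-layer marker lists were summed without 1 gene that is not reported here.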

Additional observations from a re-analysis of the deposited data

Results flagged for a closer look

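In the progenitor experiment 6 of 92 groups of 4 libraries (46 genes, 2 groups each) held a library far from the other 3, where chance flags about 1 in 20 groups. These were Syngr3 in mutant 2 (168 CPM, the highest), Stx1a in control 1 (447 CPM, the highest), Vamp2 in control 1 (852 CPM, the highest), Napb in control 4 (212 CPM, the highest), Rims2 in control 3 (78.7 CPM, the lowest) and Rims3 in mutant 4 (145 CPM, the lowest).

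The log2 fold change differed between the experiments, by the interaction test, for 13 genes. The progenitor value minus the postmitotic value was -0.34 for Syn1, -0.61 for Syn2, -0.45 for Syp, -0.32 for Syngr1, -0.44 for Syngr3, -0.86 for Sv2b, -0.58 for Syt13, -0.30 for Vamp2, -0.39 for Nsf, -0.88 for Slc17a7, -0.35 for Dnm1 and -0.54 for Sh3gl2, and 0.95 for Slc17a6.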

How the results depend on the processing

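No gene called in any test changed direction under any alternative (0 of 350 progenitor, 0 of 45 postmitotic and 0 of 182 interaction values). The 22 progenitor falls became 14 at an adjusted p under 0.01 and 11 with Y-linked CPM as a covariate, and lay between 11 and 24 over 13 alternatives and between 17 (without mutant 1) and 23 when a library was left out. Over all tested genes, lower calls went from 1739 to 716 at 0.01, 430 with the covariate and 1108 without mutant 1. Higher calls went from 1838 to 851, 518 and 1281. The 3 progenitor rises became 1 at an adjusted p under 0.01, 0 with the Y-linked covariate and 1 with the exon length trend removed (1 to 4 with a library left out). The 3 postmitotic falls stayed at 3 with any library left out. The 0 postmitotic rises became 1 with DESeq2, 1 with no filter on low counts and 1 with the length trend removed, Sv2b in each (0 to 1 with a library left out, Syn3 without mutant 1). The 12 genes with a lower change in the progenitor experiment became 4 at an adjusted p under 0.01, 4 with the Y-linked covariate and 7 with postmitotic libraries 1 and 2 alone (4 to 17 with a library left out), and the 1 with a higher change became 2 with DESeq2, 2 with thinned counts, 0 with the Y-linked covariate and 2 with the length trend removed (1 to 2 with a library left out). Over all tested genes, lower interaction calls went from 485 to 125 at 0.01, 133 with the covariate and 423 with those libraries alone. Higher interaction calls went from 601 to 806 with DESeq2, 596 with thinned counts, 143 with the covariate and 688 with the length trend removed. Higher postmitotic calls went from 159 to 254 with DESeq2, 362 with no filter and 194 with the length trend removed. The causes were not tested. In the progenitor experiment the fit with the Y-linked covariate rests largely on mutant 1 against the controls. On raw library totals the summed level in postmitotic libraries labelled mutant was 9852 in place of 9953 CPM. In postmitotic controls it was 10318 in place of 10239 CPM, so these groups lay further apart on that scale. Deviations from the group mean in same-numbered libraries had correlations of -0.315, 0.162, 0.137 and 0.0298 in the progenitor, and -0.31, -0.00605 and -0.276 in the postmitotic experiment. Those of unlike-numbered progenitor libraries ran from -0.468 to 0.439. Deviations from a mean of so few libraries are tied to each other, so this does not settle whether the numbers pair the libraries. With the replicate block the calls were 22 lower and 2 higher in the progenitor experiment, 3 and 0 in the postmitotic experiment, and 5 lower and 1 higher in the interaction. Over all tested genes they were 1516 and 1557, 135 and 111, and 290 and 369. Cplx1, Rab3c and Unc13a lost their progenitor calls with the block, so those calls are not all of the same genes as before. With 3 libraries a group, changes under about 0.152 on the log2 scale lay within the interval of a typical uncalled gene.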
